A study of Mus musculus with 2 samples.

Results

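The cells described here are Ccr7+ dendritic cells (DCs) in orthotopic RM-1 tumors, a mouse prostate cancer model in which RM-1 cells grow in the prostate of C57BL/6 mice. Droplet libraries of single-cell RNA were compared, 1 from tumors treated with vehicle (control) and 1 from tumors treated with enzalutamide (ENZ), an androgen receptor antagonist. Both groups carried the same cell line and the genotype WT. The study's methods gave a pair of mice as the source of the tissue and an enrichment of immune cells during sorting, although the labels named prostate cancer cells, and the deposited files held both kinds of cell. With 1 library per condition there was no replicate. No test was therefore possible, and every interval below covers counting error only. Cells of 1 library share their tumor, and the UMIs of 1 cell are not independent, so the intervals are narrower than the true error.

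Conventional DCs take up antigen in tissue. On maturation they lose uptake receptors, gain costimulatory and inhibitory ligands, switch on Ccr7 and move toward the lymph node. CCR7 is the chemokine receptor that guides this migration, and Fscn1 encodes fascin, an actin-bundling protein of the dendrites of mature DCs. Ccl22 and Ccl17 encode chemokines that attract CCR4+ T cells, regulatory T cells among them. In tumors, cells of this state carry much of the checkpoint ligand PD-L1, encoded by Cd274, of the DC compartment.

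The members were selected on their measured UMIs (unique molecular identifiers, which count captured RNA molecules), so the levels of the genes used are a description. A barcode needed at least 1000 UMIs with at most 20% from mitochondrial genes, at least 1 UMI of Ccr7, at least 2 of Fscn1, Ccl22 and Cacnb3 together, and at least 10 of the MHC class II genes H2-Aa and H2-Ab1 and the invariant chain gene Cd74 together (MHC class II UMIs below). It could hold at most 1 UMI of the T cell genes Cd3d, Cd3e and Cd3g, at most 2 of the macrophage genes C1qa, C1qb and C1qc, and at most 1 of the B cell gene Cd79a. The rule found 93 of 22524 cells, or 0.413%. Control held 65 of 12253 cells (0.530%, exact 95% interval 0.410 to 0.676) and ENZ 28 of 10271 (0.273%, 0.181 to 0.394). The members had a median of 7363 UMIs in control, where they ranged from 2679 to 54668, and of 7902 in ENZ, where they ranged from 1200 to 44065. No barcode of a member occurred in both libraries, while 39 barcodes did among all cells.

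The 93 cells were of 2 kinds. Across 8 genes of cancer cells (the keratins Krt8 and Krt18 among them) and 7 of fibroblasts (such as Col1a1 and Col3a1), 70 members held 0 to 3 UMIs and 23 held 13 or more, with none from 4 to 12. A limit of 8 UMIs, set after these values were seen, divided the members into 49 low and 16 high cells in control and 21 low and 7 high cells in ENZ. The high cells held 59.7% of all UMIs of the members in control and 50.7% in ENZ, with medians of 29185.5 and 19496 UMIs per cell against 6778 and 6884 in the low cells.

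The wider program of mature DCs took a large share of the RNA of the low cells. A list of 41 genes of this state, none of them in the rule, held a median of 179 UMIs per 10000 in the low control cells and 217 in the low ENZ cells. In the high cells the medians were 22.2 and 43.8, against 21.3 and 19.5 in all other cells of the libraries. The list passed 100 UMIs per 10000 in 38 of 49 low cells of control, in 19 of 21 of ENZ and in 0 of the 23 high cells. Among all other cells it passed 100 in 481 of 12188 in control and 233 of 10243 in ENZ, so this level alone does not mark the class. Ccr7 itself was at a single UMI in 9 of the 16 high control cells and in 9 of the 49 low ones. A doublet caller marked 11 of the 23 high cells and 1 of the 70 low ones. In UMIs without scaling the list overlapped, from 23 over a median of 61 to 215 in the high control cells and from 45 over 61 to 240 in the high ENZ cells, against 21 over 126 to 349 and 4 over 123 to 514 in the low cells. As a share of a cell's RNA the label was thus borne out for most low cells and not for the high ones, and values below are for the 70 low cells, called mature DC-like, unless all 93 are named.

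**Figure D1:**
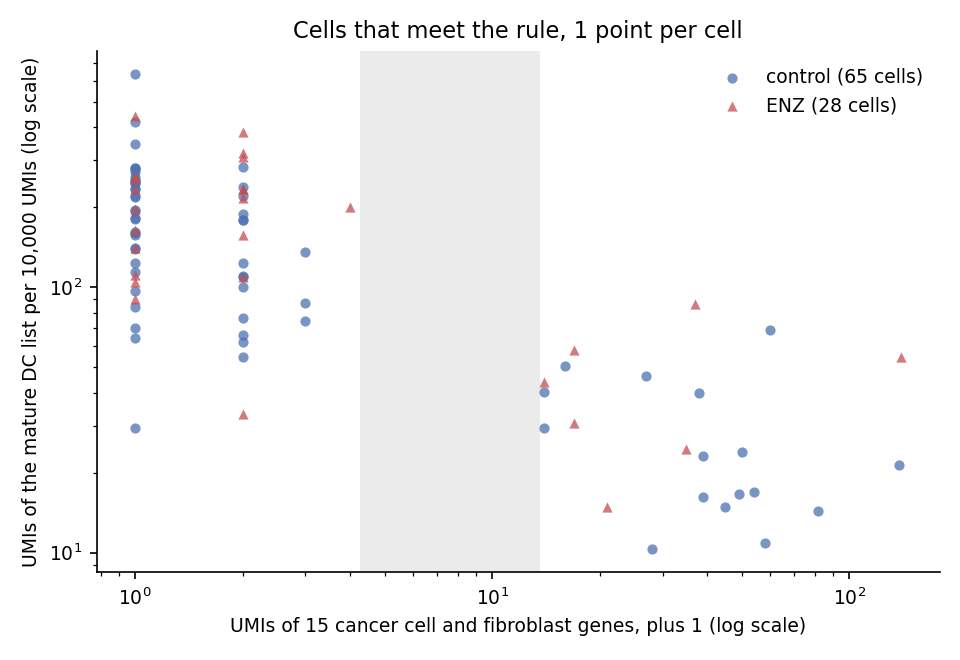
Each point is 1 of the 93 cells that met the rule, with the UMIs of 15 cancer cell and fibroblast genes plus 1 on the x axis and the UMIs of the 41 mature DC genes per 10000 UMIs on the y axis, both on log scales. The grey band marks the range of 4 to 12 UMIs that held no cell. All cells to its right lie under 100 per 10000.

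The mature DC-like cells made up 0.400% of control cells (0.296 to 0.528) and 0.204% of ENZ cells (0.127 to 0.312), a ratio of 0.511 (0.291 to 0.869). Other DCs were fewer in ENZ as well. Cells gated as cDC1 (Xcr1 or Clec9a, the DCs specialized in cross-presentation) numbered 96 in control and 43 in ENZ, with a ratio of shares of 0.534 (0.364 to 0.773). Cells gated as cDC2 by Cd209a numbered 56 and 16, with a ratio of 0.341 (0.183 to 0.603). Levels and ratios given below for these gates are over their cells under the same 8 UMIs of cancer cell and fibroblast genes, 87 and 42 for cDC1 and 52 and 14 for cDC2. Shares of other gated classes differed as well. Macrophages were 13.4% of control and 8.11% of ENZ cells and neutrophils 7.42% and 3.23%, while T cells were 3.56% and 5.67%. Cancer cells gated by Krt8 and Krt18 were 21.1% of control and 32.2% of ENZ cells. The part of these differences in the shares of DCs was not tested. A share depends on how many cells of other types a library holds, and on the sort.

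The MHC class II limit of the rule decided much of that ratio. Cells that met every other limit, were low in cancer cell and fibroblast genes, and held fewer than 10 UMIs of H2-Aa, H2-Ab1 and Cd74 numbered 41 in control and 34 in ENZ, which was 0.335% and 0.331% of cells. Their mature DC list stood at a median of 216 and 205 UMIs per 10000, close to the cells inside the rule, and passed 100 in 37 of 41 and 32 of 34. They were shallower, with medians of 3153 and 4447.5 UMIs. At the edge of the limit, the 3 low control cells with 10 MHC class II UMIs had a median of 249 UMIs of the list per 10000 and the 6 with 9 UMIs a median of 181, with ranges that overlapped. In ENZ, 1 low cell with 10 UMIs stood at 439.9 and the 2 with 9 at 238 and 264. With the limit dropped, the low cells numbered 90 in control (0.735%) and 55 in ENZ (0.535%), a ratio of 0.729 (0.512 to 1.03), whose interval includes 1. The other limits cut elsewhere. The 116 control and 40 ENZ cells that missed the rule only for want of Ccr7 had medians of 18.7 and 19.0 UMIs of the list per 10000, against 39.9 and 24.6 in the 18 and 3 of all 93 members with 1 UMI of Ccr7. The 12 and 6 cells with 1 UMI of Fscn1, Ccl22 and Cacnb3 had medians of 48.6 and 44.8, against 54.3 and 105 in the 5 and 3 members with 2 UMIs.

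**Figure D2:**
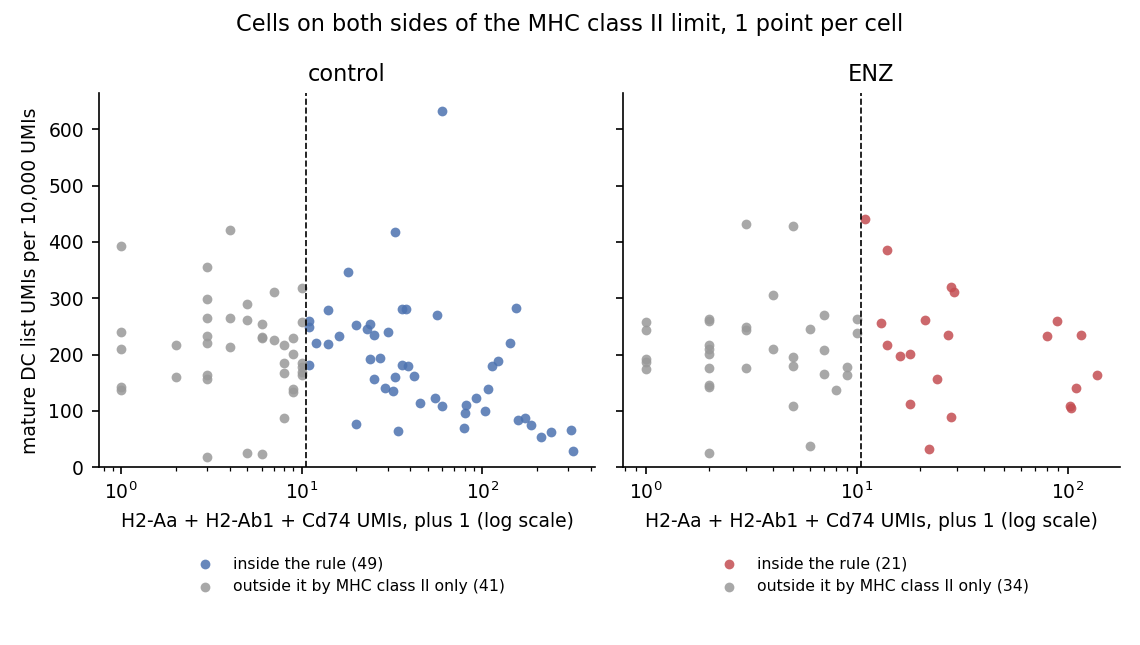
Each point is a cell low in cancer cell and fibroblast genes that met all limits except that on MHC class II, with H2-Aa, H2-Ab1 and Cd74 UMIs plus 1 on a log x axis and mature DC list UMIs per 10000 on the y axis, for control and ENZ. Colored cells are inside the rule and grey cells outside it, and 37 of 41 and 32 of 34 of the grey cells lie above 100.

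The genes of the rule set the members apart by construction, and their levels give the scale. Levels are CPM (UMIs of a gene per 1000000 UMIs, summed over the cells of a class), and a gene without a UMI in these cells could still have been present at up to 9.35 CPM in control and 19.7 CPM in ENZ, the value of 3 UMIs. Ccr7 stood at 742 CPM in control (238 UMIs) and 1441 CPM in ENZ (219 UMIs), against 14.7 and 35.8 in T cells. Per cell it ran from 0.758 over a median of 6.17 to 44.3 UMIs per 10000 in control, and from 2.25 over 13.1 to 32.1 in ENZ, so that the cells of both libraries overlapped. Ccl22 stood at 1755 and 3757 CPM and was found in 46 of 49 and 18 of 21 cells. It reached at most 30.8 CPM in cDC1, cDC2, T cells, macrophages and cancer cells. Fscn1 stood at 704 and 1619 CPM, but was also found at 157 and 143 CPM in cancer cells. Cacnb3, a calcium channel subunit gene, stood at 321 and 533 CPM against at most 2.62 in cDC1 and no UMI in cDC2, where the ENZ gate could have held up to 30.8 CPM unseen.

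Thinning every cell to 1000 UMIs made the shares of positive cells comparable across depths. The share with Ccl22 was 93.9% in control and 85.7% in ENZ before thinning and 66.8% and 70.3% after it, against 0.228% and 0.236% after it in T cells, which should lack the gene and had median depths of 4479 and 4871.5 UMIs. The share with Fscn1 went from 71.4% to 41.3% in control and from 81.0% to 59.1% in ENZ, while in cancer cells it went from 91.6% to 14.7% and from 91.9% to 13.5%. Krt8, which DCs should lack, was found in 12.2% and 9.5% of the mature DC-like cells before and in 2.26% and 1.21% after thinning, but the limit on cancer cell genes had kept it low in these cells. In T cells, which met no such limit, the thinned shares were 4.78% and 4.06%. In barcodes with too few UMIs to be cells, which hold mostly free RNA, Ccr7 averaged 0.00138 UMIs in control and 0.00188 in ENZ, against 4.86 and 10.4 per mature DC-like cell.

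Beyond the rule, 34 of the 41 genes of the mature DC list had at least 50 UMIs over both libraries, and 34 of those 34 were above all other cells in each library. The same was true of 59.1% of the 1466 genes with as many UMIs. Against the cDC1 gate 32 of 34 were higher in both libraries (53.3% of all genes), and against the cDC2 gate 33 of 34 (46.0%). These cells were chosen with Ccr7 and its partners known, so these counts describe the class and test nothing. The 7 genes with fewer UMIs were Icosl, Apol7c, Zmynd15, H2-M2, Slco5a1, Tnfrsf4 and Bcl2l14.

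Genes outside the rule were ranked by how far they exceeded the rest of the libraries, by the lower of their folds in the 2 libraries. Ccl17 led with 246-fold in control and 684-fold in ENZ. The noncoding gene Gm13546 followed with 215-fold and 511-fold, and Il12b, which encodes the p40 subunit of IL-12 and IL-23, with 138-fold and 516-fold. Il12b nonetheless came from 11 of 49 and 5 of 21 cells. Cd200, a ligand that restrains myeloid cells, was 121-fold and 150-fold higher, and Il4i1, a secreted amino acid oxidase, 120-fold and 266-fold. Nudt17 was 143-fold and 127-fold higher, with UMIs in 23 of 49 and 9 of 21 cells. Ly75, the antigen uptake receptor DEC-205, was 58.7-fold and 41.8-fold higher, and Flt3, the growth factor receptor of the DC lineage, 38.3-fold and 76.3-fold. The rest of the leading 20 were Strip2, Mreg, Syn3, Mmp25, Adam23, Aldh1a2, Ramp3, Serpinb6b, Nostrin, Pkib, Sema7a and Tbc1d4.

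**Figure D3:**
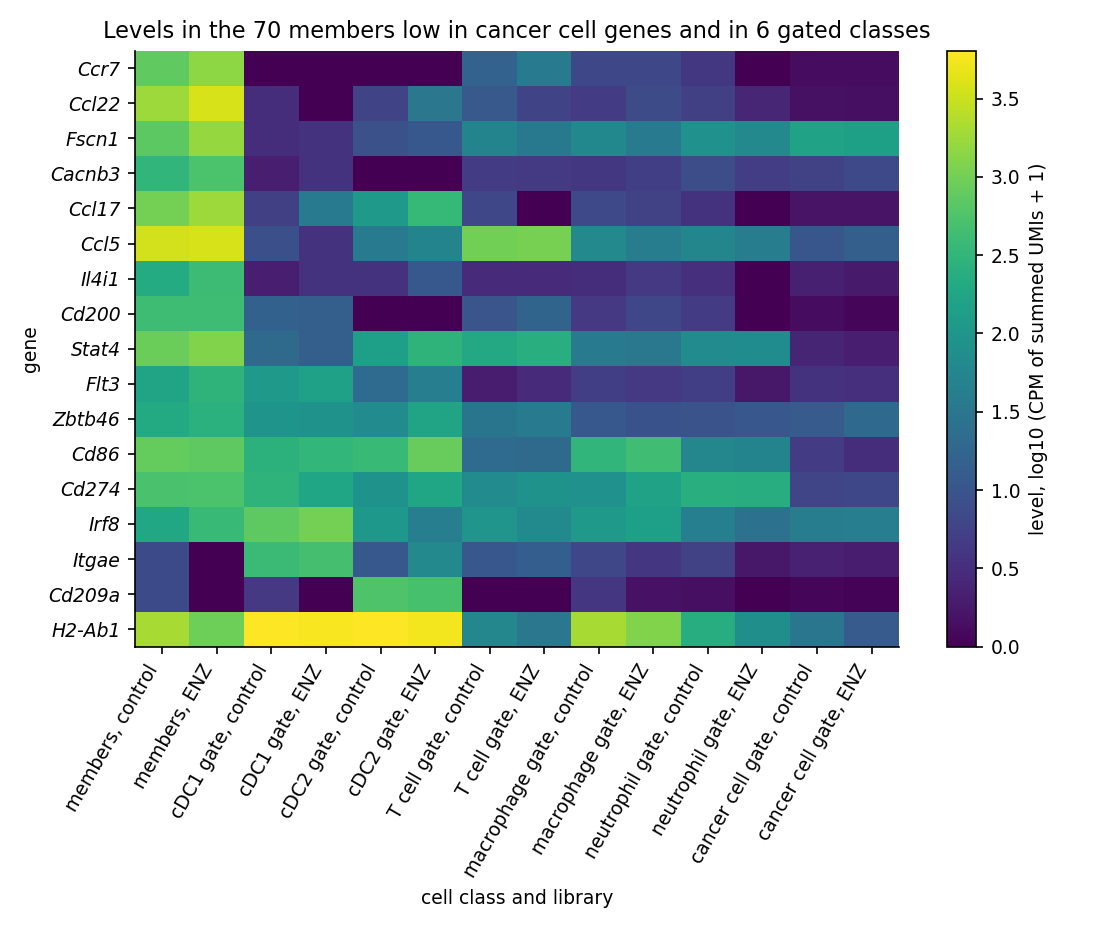
Color gives log10 of CPM plus 1 for 17 genes (rows) in the 70 mature DC-like cells and in 6 gated classes (columns), with control and ENZ side by side. Ccr7, Ccl22, Cacnb3, Il4i1 and Cd200 are bright in the members alone among these classes, Ccl5 is also bright in T cells, and H2-Ab1 is brighter in cDC1 and cDC2 than in the members.

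Among chemokines outside the rule, Ccl5 was the most abundant in these cells at 3466 CPM in control and 3704 in ENZ, a ratio of 1.07 (0.964 to 1.18). The T cell gate held 996 and 1068 CPM of it. Single cells ranged from 0 over a median of 13.9 to 268 UMIs per 10000 in control and from 0 over 7.26 to 164 in ENZ, and the 3 cells with most of it held 32.7% and 53.6% of its UMIs. Ccl17 was more uneven still. It was found in 35 of 49 and 11 of 21 cells, and 3 ENZ cells held 78.3% of its 267 UMIs there. The cDC2 gate also carried Ccl17, at 112 and 359 CPM, while the cDC1 gate held 4.31 and 36.7.

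Transcripts of costimulatory and of inhibitory ligands were both found in the class, and how many single cells held both was not counted. Cd86, a ligand of CD28, stood at 807 CPM in control and 717 in ENZ (ratio 0.888, 0.704 to 1.12), and its relative Cd80 at 455 and 645 (1.42, 1.09 to 1.84). Cd83, a maturation marker, stood at 555 and 572 CPM, but cDC1 held 597 and 375. Cd274 stood at 508 and 540 CPM (1.06, 0.804 to 1.39), above cDC1 at 293 and 178, cDC2 at 86.9 and 174, and macrophages at 84.6 and 156. Its UMIs were found in 39 of 49 control and 18 of 21 ENZ cells, with medians of 3.85 and 4.43 per 10000. Cd200 stood at 421 and 415 CPM.

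Part of the MHC class II pathway was lower here than in the DC gates. The pathway list outside the rule, led by H2-Eb1, summed to 4778 CPM in control and 3349 in ENZ. It summed to 8213 and 7637 in cDC1 and to 9721 and 9569 in cDC2. The 3 genes of the rule are a description only, because they chose the cells. They held a median of 84.2 UMIs per 10000 in control and 40.7 in ENZ, against 231 and 199.9 in cDC1 and 261 and 249 in cDC2. Ciita, the master regulator of these genes, stood at 24.9 and 52.6 CPM against 183 and 283 in cDC1 and 135 and 329 in cDC2. Of the 5 genes of the pathway list outside the rule with 50 or more UMIs, 2 were above cDC1 (53.3% of all genes) and 1 above cDC2 (46.0%) in both libraries. Lgmn, an endosomal protease, stood at 206 and 151 CPM, against 164 and 113 in cDC2. The list of antigen uptake and pattern receptors summed to 814 and 342 CPM, below cDC2 at 2504 and 2413 in both libraries, while cDC1 held 796 and 477. The cell cycle list summed to 474 and 540 CPM, against 1302 and 1312 in cDC1, 381 and 462 in cDC2 and 2666 and 2383 in all other cells.

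DC identity genes were present while the defining markers of the subsets were near 0. Flt3 stood at 168 and 296 CPM, against 115 and 152 in cDC1, and Zbtb46, a transcription factor of conventional DCs, at 212 and 270 CPM. Of the cDC1 markers, Xcr1 had 0 and 1 UMIs, Clec9a 3 and 0, Itgae 2 and 0, and Tlr3 0 in both libraries. Of the cDC2 markers, Cd209a had 2 and 0 UMIs. Other genes of both lists were present. Batf3 had 36 and 36 UMIs and Wdfy4 35 and 6 among cDC1 genes, and Sirpa 24 and 28, Mgl2 17 and 19, Irf4 9 and 17, Klf4 20 and 11 and Itgam 23 and 3 among cDC2 genes. The cDC1 list summed to 530 and 697 CPM, against 343 and 282 in all other cells and 5271 and 6385 in cDC1, and the cDC2 list to 321 and 513, against 225 and 183 in all other cells and 1686 and 1992 in cDC2. Irf8, needed for cDC1 development, stood at 193 and 375 CPM, against 738 and 1029 in cDC1. By the UMIs that remained, 6 control cells and 1 ENZ cell carried cDC1 genes alone, 4 and 5 carried cDC2 genes, and 39 and 15 fell in neither group. In control, Ccl5 stood at 8205 CPM in the 4 cells with cDC2 genes and at 1480 in the 6 with cDC1 genes, and Ccl17 at 2814 and 1004. Groups this small give the cells' values and no comparison.

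Markers of other cell types were mostly low. The B cell list had no UMI. The cancer cell list, kept low by the limit that chose these cells, summed to 31.2 and 26.3 CPM. The T cell list summed to 71.7 and 39.5 CPM, against 62.6 and 77.6 in all other cells, with Cd8b1, Themis and Foxp3 at 0 UMIs. The macrophage list summed to 268 and 112 CPM, led by Apoe, and the monocyte list to 289.9 and 112. A list for plasmacytoid DCs summed to 396 and 645 CPM, led by Tcf4 and with Siglech at 0 UMIs. It held 472 and 518 CPM in all other cells, 106 and 254 in cDC1 and 429 and 236 in cDC2. The NK cell list summed to 592 CPM in control, where a single cell held 162 of the 166 UMIs of Gzma, and to 19.7 in ENZ.

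Transcripts of the NF-kB pathway, which drives DC maturation, were abundant. Nfkb1 stood at 1459 and 1487 CPM, against 471 and 553 in cDC1 and 874 and 1027 in cDC2, and Relb, a subunit of the noncanonical arm, at 402 and 592 CPM, against 67.8 and 36.7 and against 97.1 and 103. Of the 12 genes of the list with 50 or more UMIs, 12 were above cDC1 (53.3% of all genes) and 10 above cDC2 (46.0%) in both libraries. A motif named NF-kB, of 10 bases and searched on both strands of the 250 bases before each start site in RefSeq sequence (GRCm38), was present in 6 of the 34 genes (17.6%) of the mature DC list and the rule that had a promoter there, of 45 listed. It was present in 7 of 15 genes (46.7%) of the pathway list and in 2225 of all 27025 genes (8.23%). None of the 6 cDC2 genes and 1 of the 10 cDC1 genes held it. Matches are letters in a window and not shown to be bound. As examples, 4 are printed, from 2 subunit genes of the pathway (Nfkb2 and Rel) and from 2 other genes of the mature DC list. Nfkb2 is on both lists and counts in both shares. The capitals mark the motif in each stretch, read 5′ to 3′ on the strand of the gene.
Nfkb2, chr19:46304688-46304717, plus strand: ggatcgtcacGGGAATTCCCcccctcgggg
Tnfrsf9, chr4:150927946-150927975, plus strand: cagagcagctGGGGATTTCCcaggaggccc
Rel, chr11:23771041-23771070, minus strand: gtaagcagcgGGAAATCCCCccccctcccc
Pdcd1lg2, chr19:29410669-29410694, plus strand: tgctgtGGGGAATCCCtggtacatgt
The match begins 39 bases before a start site in Nfkb2, which encodes the p100 precursor of p52, 43 before it in Tnfrsf9 (4-1BB), 91 in Rel (c-Rel) and 244 in Pdcd1lg2 (PD-L2).

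Comparing libraries, 71 genes were at least 2-fold higher in the ENZ cells than in the control cells with a counting interval that excluded 1, which was 4.84% of the 1466 genes with 50 or more UMIs, and 73 were at least 2-fold lower (4.98%). Over all 93 members the counts were 197 (5.43%) and 173 (4.77%) of 3630 genes. The median log2 ratio of all genes was −0.03 in the 70 cells and 0.08 in the 93. Without the single cell that held most UMIs of a gene in each library, 43 were higher and 86 lower of the 1218 genes that still had 50 UMIs. With the MHC class II limit dropped, 37 of the 71 and 40 of the 73 were still counted, among 140 higher and 127 lower of 2647 genes. Each difference is between 2 libraries and cannot be told apart from a difference between the tumors or preparations behind them.

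Of the 34 mature DC genes with enough UMIs, 5 were in the higher group and 1 in the lower, at a median log2 ratio of 0.48 against −0.03 for all genes, and 27 had a ratio above 1. The higher ones were Net1, a guanine exchange factor of RhoA, with 93.5 CPM in control and 342 in ENZ (3.66, 2.29 to 5.94), Il15ra, which presents IL-15, with 56.1 and 211 (3.75, 2.04 to 7.10), Tbc1d4 with 801 and 1684 (2.103, 1.76 to 2.51), Socs2 with 193 and 401 (2.08, 1.43 to 3.01) and Cd40, the receptor for T cell help, with 184 and 375 (2.04, 1.39 to 2.99). The top 3 ENZ cells held 65.4% of the Net1 and 68.8% of the Il15ra UMIs there. In the cells outside the MHC class II limit, the ratios were 2.19 for Net1, 1.66 (0.993 to 2.83) for Il15ra, 1.23 (0.989 to 1.53) for Tbc1d4, 1.64 for Socs2 and 1.85 for Cd40. With the limit dropped, Tbc1d4 at 1.63, Socs2 at 1.84 and Cd40 at 1.91 were no longer past 2-fold. Pdcd1lg2, the other ligand of PD-1, was lower, with 59 UMIs (184 CPM) in 25 control cells and 7 (46.1 CPM) in 6 ENZ cells (0.250, 0.0965 to 0.549). Outside the limit it had 13 and 26 UMIs and a ratio of 2.30, on the other side of 1. Of the 34 genes, 17 had an interval above 1 and 1 had it below, against 209 and 257 of all 1466 genes. As UMIs per 10000 of a cell, the list had medians of 179 in control and 217 in ENZ. Outside the limit these were 216 and 205, higher in control.

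The genes of the rule were uneven between libraries as well, though a description only. Fscn1 had a ratio of 2.30 (1.91 to 2.76), Ccl22 of 2.14 (1.90 to 2.41), Ccr7 of 1.94 (1.61 to 2.34) and H2-Ab1 of 0.460 (0.381 to 0.553). The top 3 ENZ cells held 50.8% of the Fscn1 and 51.3% of the Ccl22 UMIs. Without the top cell of each library the ratio was 2.1 for Fscn1 and 1.93 for Ccl22, and outside the limit it was 1.21 and 2.66. In all other cells H2-Ab1 had a ratio of 0.312, and in the cDC1 gate of 0.915. The 3 control cells with most H2-Ab1 held 29.6% of its UMIs there. Their mature DC list stood at only 29.5, 65.8 and 74.3 UMIs per 10000. The ratio of H2-Ab1 thus rests in part on control cells under 100 per 10000, and one without them was not worked out.

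**Figure D4:**
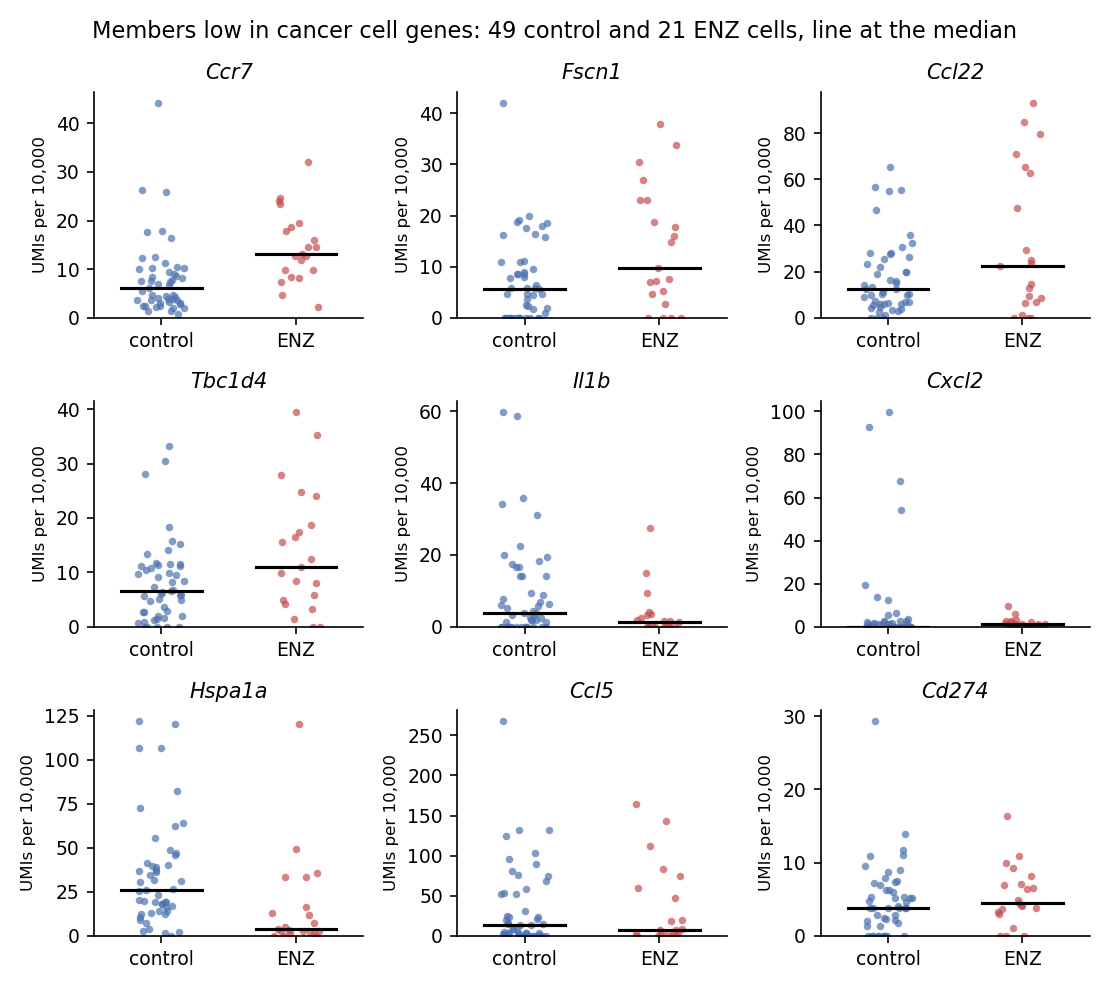
Points are the 49 control and 21 ENZ mature DC-like cells, with UMIs of 9 genes per 10000 UMIs of the cell on the y axes and a black line at the median. The cells of both libraries overlap for each gene, and the upper ENZ values of Fscn1 and Ccl22 come from a few cells.

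Ratios were ordered by whichever end of their interval lay closer to 1, and Il1b, Cxcl2 and Ptgs2 were among the 12 lowest by that bound. Il1b, the cytokine IL-1 beta, had 347 UMIs (1082 CPM) in 35 of 49 control cells and 47 (309 CPM) in 12 of 21 ENZ cells, a ratio of 0.286 (0.206 to 0.389). Its median was 3.85 UMIs per 10000 in control and 1.38 in ENZ, and the ranges overlapped. Cxcl2, a neutrophil chemokine, stood at 1007 and 164 CPM (0.163, 0.104 to 0.246), but 3 control cells held 76.5% of its UMIs and its median was 0 in control and 1.32 in ENZ. Ptgs2, the prostaglandin synthase COX-2, stood at 293 and 59.2 CPM (0.202, 0.0896 to 0.400), from 18 of 49 and 6 of 21 cells, and 3 control cells held 53.2% of its UMIs. The control cells with 89 and 64 UMIs of Cxcl2 had the mature DC list at only 74.3 and 86.8 UMIs per 10000. The one with 94 stood at 235 and was marked by the doublet caller. A control cell at 84.3 held the most Il1b (46 UMIs) and the most Ptgs2 (28). The next in Il1b held 45, at 74.3, and 42, at 181. The 3 ratios thus rest in part on control cells under 100 per 10000, and ratios without them were not worked out. Lists of other myeloid cells moved with these genes, the neutrophil list from 159 CPM in control to 26.3 in ENZ, the monocyte list from 289.9 to 112 (0.386, 0.216 to 0.652) and the macrophage list from 268 to 112, and their part was not tested. Outside the MHC class II limit the ratios were 0.112 for Il1b, 0.273 for Cxcl2 and 0.128 for Ptgs2. In all other cells they were 0.457, 0.935 and 0.985, and in the cDC1 gate 0.312, 0.520 and 0.468. In the cDC2 gate they were 1.196, 3.001 and 1.18. The ratio of Il1b was thus below 1 in the library as a whole, and those of Cxcl2 and Ptgs2 were near 1 there.

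Several of the lowest ratios came from 1 or 2 control cells. Gzma, with a ratio of 0.0127 (0.00032 to 0.0718), had 162 of 166 UMIs in 1 cell, and Gm13822 had 126 of 171 in 1 cell. Tprkb had 57 of 61 and Gm11613 48 of 61. Ccl4, a chemokine gene, had 59 UMIs in 10 control cells, 34 of them in 1, and none in ENZ, while outside the limit its ratio was 0.823 (0.206 to 3.01). Lyz2, the lysozyme of macrophages and granulocytes, had 160 UMIs in 15 control cells and 5 in 4 ENZ cells, a ratio of 0.066 against 0.485 (0.184 to 1.16) outside the limit. In control 3 cells held 83.1% of its UMIs. The cells with 71 and 46 of them had the mature DC list at only 86.8 and 74.3 UMIs per 10000. The macrophage and neutrophil lists moved the same way as Lyz2, at 268 and 159 CPM in control against 112 and 26.3 in ENZ, and their part in it was not tested. Apoe, which led the macrophage list, averaged 0.551 UMIs per mature DC-like cell in control and 0.0952 in ENZ. Barcodes with too few UMIs to be cells averaged 0.211 and 0.100 of it. Lyz2 averaged 3.27 and 0.238 per mature DC-like cell against 0.158 and 0.0827 there. The part of free RNA was not tested. The others of the 12 lowest by that bound were Nrg1 at 0.251, with 31 and 9 positive cells, Dmac2l and Gm16124. In control Dmac2l had 82 UMIs in 3 cells, 42 of them in 1, and Gm16124 had 176 in 6 cells, 81 of them in 1. Outside the limit Gm16124 turned, with 24 and 161 UMIs and a ratio of 7.73 (5.01 to 12.4). There Tprkb had 0 UMIs in control and 8 in ENZ, Gm13822 2 and 6, Gm11613 1 and 1, and Nrg1 a ratio of 0.599 (0.358 to 0.981).

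Of the 10 immediate early and heat shock genes with enough UMIs, 2 were lower (Hspa1a and Hspa1b), 1 was higher (Zfp36, 2.61) and the median log2 ratio was −0.06. Outside the MHC class II limit Zfp36 had a ratio of 0.815 (0.488 to 1.34), on the other side of 1, and with the limit dropped 1.54, no longer past 2-fold. Hspa1a stood at 3475 CPM in control, where cells ranged from 0 over a median of 25.9 to 122 UMIs per 10000, and at 1402 in ENZ, where the median was 4.02 and 1 cell reached 120 (ratio 0.403, 0.347 to 0.467). Hspa1b stood at 1979 and 836 CPM (0.422, 0.346 to 0.512). In all other cells the ratios were 0.540 and 0.647, in cDC1 0.416 and 0.492 and in cDC2 0.280 and 0.189. These genes respond to tissue handling as well as to stress in the tumor, and the part of handling was not tested.

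Other lists gave few genes on either side. Over all 1466 genes with 50 or more UMIs, 4.84% were higher and 4.98% lower. Among such genes, 1 of 4 of the costimulatory list was higher (Cd40, a receptor) and 2 of 5 chemokines were lower (Cxcl2 and Ccl4). Likewise 1 of 2 cytokines was lower (Il1b) and 1 of 7 cytokine receptors was higher (Il15ra). Of 5 MHC class II pathway genes with enough UMIs outside the rule, H2-DMa was lower (212 and 98.7 CPM, 0.466, with 0.440 in all other cells), and none was higher. Outside the limit H2-DMa had a ratio of 1.38 (0.352 to 5.73), on the other side of 1. Of 16 MHC class I genes 1 was higher, Tapbp, the peptide loading chaperone tapasin, at 2.11 (1.30 to 3.42), with 1.296 (0.720 to 2.35) outside the limit and 1.67 with it dropped, where it was no longer past 2-fold. Of 12 NF-kB genes 1 was higher, Map3k14, the kinase NIK, with 140 and 415 CPM (2.96, 1.98 to 4.43) and a ratio of 1.61 outside the limit. A ratio above 1 was found for 11 of the 12, at a median log2 ratio of 0.48 against −0.03 for all genes. The interval lay above 1 for 6 of the 12 and below it for 0, against 209 and 257 of all 1466 genes. Of 3 interferon-stimulated genes with enough UMIs, Isg15 was lower, at 265 and 85.5 CPM (0.323, 0.165 to 0.582), and Irf1, which also answers to NF-kB, higher at 2.66 (1.56 to 4.58). None of 21 genes of migration and the cytoskeleton passed 2-fold, with a median log2 ratio of −0.01, and none of 9 genes of apoptosis and survival, with −0.29. A list of androgen and glucocorticoid response genes, the former the target of the drug, summed to 240 CPM in control and 296 in ENZ, and only Nr3c1, the glucocorticoid receptor, had enough UMIs and did not pass 2-fold. Among genes of DC lineage and subset, Batf3 was higher at 2.11, Sirpa at 2.46 and Btla at 2.48, from 23 to 36 UMIs per library, though 1 ENZ cell held 12 of the 36 Batf3 UMIs there. Outside the limit the ratios were 1.73 for Batf3, 1.06 (0.444 to 2.53) for Sirpa and 3.65 for Btla. With the limit dropped they were 1.93, 1.73 and 2.53, and only Btla of the 3 was still past 2-fold.

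Genes higher in ENZ outside these lists were Tmcc3, Mef2a, Pik3r1 and Slc4a8, which with Net1, Il15ra, Map3k14, Fscn1 and 4 rRNA-like genes made up the leading 12 by the same bound. Tmcc3 stood at 321 and 967 CPM (3.01, 2.33 to 3.91), and 3 ENZ cells held 63.9% of its UMIs. Pik3r1, the regulatory subunit of PI3K, stood at 598 and 1448 CPM (2.42, 1.98 to 2.95), with medians of 5.21 and 12.1 UMIs per 10000 and 34.1% in the top 3 ENZ cells. Outside the limit the ratios were 2.39 for Tmcc3, 2.04 for Pik3r1, 1.56 (1.11 to 2.20) for Mef2a and 1.31 (0.776 to 2.21) for Slc4a8. In all other cells they were 0.926 for Tmcc3 and 1.01 for Pik3r1.

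**Figure D5:**
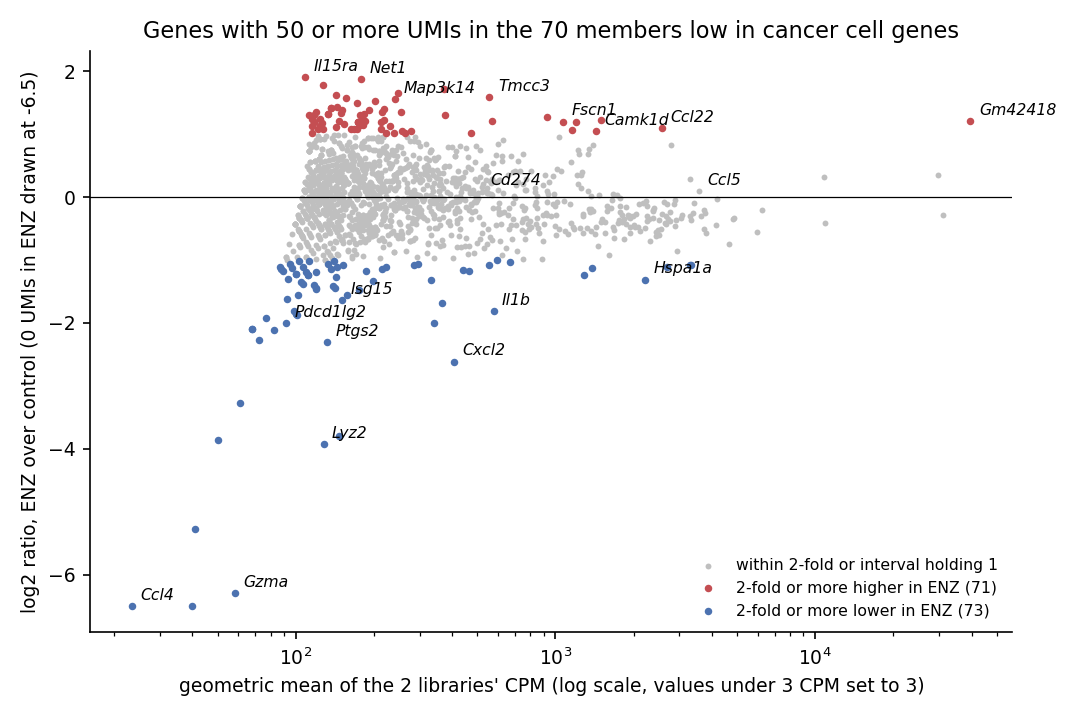
Each point is 1 of 1466 genes, with the geometric mean of its CPM in control and ENZ on a log x axis and the log2 ratio of ENZ over control on the y axis. The 71 colored points above 0 and the 73 below it are at least 2-fold apart with a counting interval that excludes 1. Ccl4 and Gm13822, with no UMI in ENZ, are drawn at the bottom.

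Transcripts of a list called rRNA-like here, led by Gm42418, which overlaps a ribosomal RNA repeat, were higher in the cells of the ENZ library as a whole. Of its 9 genes 5 were in the higher group. Gm42418 stood at 26023 and 60344 CPM (2.32, 2.25 to 2.39) in the mature DC-like cells, and all other cells had a ratio of 2.28. Barcodes with too few UMIs to be cells held 92707 CPM of it in control and 94101 in ENZ. The ratios in all other cells were 2.17 for Lars2 against 2.28 here, 2.02 for Gphn against 2.35 and 3.56 for Gm19951 against 3.29. Outside the limit they were 1.72 for Gm42418, 1.56 for Lars2, 1.46 for Gphn and 2.53 for Gm19951, and with it dropped Lars2 at 1.95 and Gphn at 1.91 were no longer past 2-fold. The list as a whole took 37600 CPM in control and 76155 in ENZ. The mitochondrial genes mt-Atp6, mt-Co3 and mt-Nd2 had ratios of 0.47 in the mature DC-like cells, of 0.829, 0.917 and 1.01 outside the MHC class II limit, of 0.622, 0.618 and 0.744 with that limit dropped, and of 0.92, 0.91 and 1.08 in all other cells, and mitochondrial genes took a median of 2.08% of a cell's UMIs in control and 1.19% in ENZ. With a denominator free of mitochondrial, ribosomal protein and rRNA-like genes, 65 of 1363 genes were higher and 73 lower in the mature DC-like cells. The study asked about Camk1d, a calcium-dependent kinase gene, in enzalutamide resistance. It stood at 991 and 2059 CPM (2.08, 1.77 to 2.44) and was found in all 49 and all 21 cells. The ratio was 1.52 (1.32 to 1.75) outside the MHC class II limit and 1.86 (1.67 to 2.06) with that limit dropped. It was 2.03 in all other cells, 2.07 in cDC1 and 1.72 in cDC2, and barcodes with too few UMIs to be cells held 6891 and 5688 CPM of it. After thinning to 1000 UMIs, 61.0% and 82.4% of these cells held a UMI of it, as did 76.5% and 93.8% of T cells (98.9% and 99.8% before thinning). Cd44, the hyaluronan receptor that the study also followed, stood at 212 and 211 CPM (0.993, 0.631 to 1.53). Outside the limit its ratio was 0.339 (0.208 to 0.535), and with the limit dropped 0.595 (0.431 to 0.811).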

How the data were processed

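The authors deposited 1 matrix of UMI counts per library, unfiltered, over 32285 genes. Its header names Cell Ranger 7.2.0, whereas the submitters' processing notes name Cell Ranger 2.1.1 and mm10. Control held 170830346 UMIs over 2438568 barcodes and ENZ 162030149 over 2239744, and cells passing the filters 154446287 and 146593438. Raw counts were summed per library and class and divided by all UMIs of the class. Intervals are exact at 95%: Poisson for CPM, conditional binomial for ratios, Clopper-Pearson for shares. Genes with 50 UMIs over both libraries entered comparisons, and a ratio of 2 or 0.5 with an interval excluding 1 was counted. Scrublet (scanpy 1.11.5) found no usable threshold in control, where it marked none of 12253 cells. The ENZ threshold of 0.2527 was applied to both (297 and 290 cells marked), and marked cells were kept. Scripts (Python 3.11.15, scipy 1.17.1) were tested on simulated data. These were Poisson counts without spread between cells, so they could not show how ratios behave where 1 cell holds most UMIs. Named genes are those of the rule, those of each list past 2-fold and up to 6 with most UMIs, the 12 most extreme on each side, the 20 highest over other cells, Camk1d and Cd44. The members and lists were chosen with earlier results of these data known. Cxcl11, Mx1, Mx2 and Clec7a were not analysed here. Alternatives covered cell and gene filters, scaling, doublets, free RNA and the limits of the rule.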

Additional observations from a re-analysis of the deposited data

How the results depend on the processing

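No paired analysis was possible because every group held only 1 sample. The share of all members was 0.530% in control, 0.273% in ENZ and their ratio 0.514. With Ccr7 of at least 2 UMIs the control share was 0.384%, and the ratio of 0.635 had an interval (0.374 to 1.05) that includes 1. With every cell thinned to 1000 UMIs, the rule left 7 and 1 cells (0.0571% and 0.00974%, ratio 0.170). Without the high cells the control share was 0.400%. With no MHC class II limit the shares were 1.09% and 0.905% and the ratio 0.834 (0.633 to 1.10), and with both changes the shares were 0.735% and 0.535%. The settings on high cells and on MHC class II were chosen after the data were seen. The counts of 197 higher and 173 lower genes became 413 and 295 with 20 UMIs per gene, 81 and 75 with 100, and 536 and 360 at 1.5-fold. Without the high cells they were 71 and 73, and 43 and 86, of 1218 genes, without the top cell of each gene too. With no MHC class II limit 114 were higher and 116 lower, and without cells marked by Scrublet 235 and 260. Scaling moved the split, to 156 and 214 with median-of-ratios and to 160 and 197 with a denominator free of mitochondrial, ribosomal and rRNA-like transcripts. Ratios over all 93 members were put through 559 alternatives for a set of 47 genes, fewer than the genes named above. In 422 the ratio stayed within its counting interval, in 135 it left it and in 2 it turned. Both turns were for Gm16124 with no MHC class II limit (1.03, and 1.33 without the high cells). The causes were not tested. Of the 71 higher and 73 lower genes of the 70 cells, 55 and 65 stayed past 2-fold without their top cell, and 51 and 52 with each cell weighted equally. With 21 ENZ cells and 151980 UMIs, genes of low level could not enter the comparison.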
